A study of Mus musculus with 192 samples.

Results

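The interleukin 1 family genes Il1a and Il1b, their receptor antagonist gene Il1rn, and Il18 with the gene of its binding protein, Il18bp, were followed across 64 groups of mouse dendritic cells. They were taken by gene symbol and make up 5 of the 23481 genes counted. All 5 passed the filter on low counts that kept 4720 genes for testing. The cells were bone marrow-derived dendritic cells (BMDCs), grown with 15 ng/mL of GM-CSF from the marrow of female C57BL/6J mice aged 6 to 8 weeks. Wells of 100000 cells were stimulated for 6 h with PAM, LPS, HMW, depleted zymosan (Zymosan below), SeV, 3',3'-cGAMP (cGAMP below) or CpGB, with each of the 21 pairs or with each of the 35 triplets of these ligands, and Ctrl wells served as the control. LPS is the bacterial lipopolysaccharide sensed by Toll-like receptor 4, cGAMP is a cyclic dinucleotide sensed by STING, and PAM, HMW, SeV and CpGB are given in the labels by these names alone. Every group had 3 libraries, and each library was counted in unique molecular identifiers (UMIs), which mark single cDNA molecules. The labels do not say whether the 3 libraries of a group came from separate mice or cultures, so p-values measure the spread between these libraries, which may be technical.

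Interleukin 1α and interleukin 1β bind the same receptor and start an inflammatory signal through the adaptor MyD88. Interleukin 1 receptor antagonist, the product of Il1rn, occupies that receptor without signalling. Interleukin 1β and interleukin 18 are made as inactive precursors that caspase-1 cuts in inflammasomes, whereas the precursor of interleukin 1α is already active. Interleukin 18 drives interferon-γ production in T and NK cells, and the secreted interleukin 18 binding protein holds it away from its receptor. In dendritic cells and macrophages, Il1b is a classical target of NF-κB after Toll-like receptor stimulation, and Il18bp is known as an interferon-induced gene. RNA levels were measured here, not the cut or secreted proteins.

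In the GENCODE M21 annotation of GRCm38 (mm10), Il1a lies on chromosome 2 from 129299610 to 129309972 on the minus strand and Il1b from 129364570 to 129371139 on the same strand, 54.6 kb apart. Il1rn lies on chromosome 2 from 24336853 to 24351494 on the plus strand. Il18 lies on chromosome 9 from 50554827 to 50581840 on the plus strand and Il18bp on chromosome 7 from 102014885 to 102018690 on the minus strand. The bases upstream of the RefSeq start sites of the 3 interleukin 1 genes (GRCm38.p6) are shown because these 3 genes are well measured and most of the results concern them. Capitals mark the letters TATAAA and the AP-1 motif TGANTCA.
Il1a, chr2:129309973-129310222, minus strand: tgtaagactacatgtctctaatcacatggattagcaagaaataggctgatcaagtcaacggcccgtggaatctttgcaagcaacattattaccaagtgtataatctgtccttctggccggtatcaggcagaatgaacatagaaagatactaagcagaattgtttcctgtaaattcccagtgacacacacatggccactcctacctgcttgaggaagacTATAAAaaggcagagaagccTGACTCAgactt
Il1b, chr2:129371140-129371389, minus strand: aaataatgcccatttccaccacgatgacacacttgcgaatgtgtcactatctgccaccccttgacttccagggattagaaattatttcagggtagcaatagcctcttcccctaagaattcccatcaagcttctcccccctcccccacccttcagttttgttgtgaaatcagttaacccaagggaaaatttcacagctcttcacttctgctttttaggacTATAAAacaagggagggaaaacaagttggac
Il1rn, first annotated start, chr2:24336610-24336852, plus strand: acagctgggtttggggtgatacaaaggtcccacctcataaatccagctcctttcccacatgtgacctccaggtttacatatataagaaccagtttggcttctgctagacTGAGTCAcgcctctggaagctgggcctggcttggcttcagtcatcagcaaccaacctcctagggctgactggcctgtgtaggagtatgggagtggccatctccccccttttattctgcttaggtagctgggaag
The letters TATAAA began 32 bases before the start of Il1a and 31 bases before that of Il1b, and on the gene's own strand they stood in 7.59% of the 32851 RefSeq windows of 250 bases. The Il1rn stretch is printed up to the GENCODE gene start and so ends 7 bases short of the RefSeq start, from which distances are counted. TGANTCA, which reads the same on both strands, was found 12 bases before the start of Il1a and 141 bases before the first start of Il1rn, against 6.75% of all windows. Searches on both strands for the C/EBP motif TTGCNNAA, the interferon response core GAAANNGAA, the STAT motif TTCNNNGAA and the NF-κB consensus gave no match in these 3 windows. The windows of all genes held them in 9.56%, 7.13%, 7.02% and 3.9% of cases. No 2 of the matches overlapped.

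Library totals ran from 46564 to 610234 UMIs with a median of 171617, and the 3 Ctrl libraries held 61823 to 89530. Il1a, Il1b and Il1rn had medians of 398, 729 and 794 UMIs per library. Il18 and Il18bp were weakly measured, with medians of 14 and 28 UMIs per library, and Il18 was under 10 UMIs in 59 libraries and at 0 in 3. In 8 libraries, all from triplets, the expression profile was at least 1.3 times as far from the other libraries of its label as from another group. These were replicate 1 of HMW + cGAMP + CpGB, Zymosan + SeV + cGAMP, HMW + SeV + CpGB, HMW + SeV + cGAMP and PAM + HMW + Zymosan, replicate 2 of the last, and replicate 3 of LPS + SeV + CpGB and PAM + HMW + SeV. Labels were kept. The total counts of calls with triplets, of additions and of interactions are given with and without these libraries, and counts per gene or ligand and ranges of levels with them. Of 10 dendritic cell markers, 8 were detected in Ctrl and Zbtb46 and Cd209a were at 0 there. The macrophage list summed to 15129 to 16687 CPM (UMIs of a gene per 1000000 UMIs of the scaled library) in Ctrl. It had means of 10249.5 with LPS to 14487 with HMW over the single ligands, all below the Ctrl mean of 15901, while the means of the dendritic list ran from 6564 to 7424 CPM against 6415 in Ctrl. All 9 neutrophil markers in the table were detected in Ctrl and summed to 826 to 1039 CPM there, with means of 869 to 1163 CPM over the single ligands. In Ctrl the mast cell and basophil list summed to 0 to 37.4 CPM, and the B cell and the T and NK cell lists were at 0. The part of these lists in the results was not tested. Fewer cells of a type and less RNA per cell cannot be told apart in such bulk libraries.

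With single ligands, the 2 cytokine genes Il1a and Il1b rose with PAM, LPS, CpGB and Zymosan and passed the test with none of HMW, SeV and cGAMP. A gene was called when the adjusted p of the quasi-likelihood test of edgeR (Benjamini-Hochberg over all genes) was under 0.05 and the change was at least 1 on the log2 scale. Over the 7 ligands, 20 of the 35 tests of the 5 genes were called higher, where 8.7% of all tests were called higher and 4.95% lower. None was called lower by edgeR or DESeq2, and none was lower at an unadjusted p under 0.05. The 7 comparisons share the 3 Ctrl libraries. By ligand, the share of all genes called higher was 8.01% with PAM, 14.6% with LPS, 0.953% with HMW, 4.43% with Zymosan, 10.5% with SeV, 11.7% with cGAMP and 10.8% with CpGB.

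Il1a, which encodes the cytokine that is active without cleavage, stood at 305, 212 and 134 CPM in the 3 Ctrl libraries. With PAM it was at 2526, 2172 and 2289 CPM, with LPS at 1556, 1585 and 1459 CPM, and with CpGB at 1164, 1644 and 1595 CPM. All 9 of these libraries lay above the Ctrl libraries. The log2 change against Ctrl was 3.48 (SE 0.24, adjusted p = 1.65e-38 by edgeR) with PAM, 2.87 (SE 0.25, adjusted p = 3.23e-28 by edgeR) with LPS and 2.84 (SE 0.25, adjusted p = 3.96e-27 by edgeR) with CpGB. Zymosan gave 893, 787 and 690.5 CPM, a smaller range that also lay clear of Ctrl (log2 change 1.90, SE 0.25, adjusted p = 5.77e-12 by edgeR). SeV and cGAMP gave 253 to 373 and 258 to 403 CPM, which overlapped the Ctrl libraries, and their log2 changes of 0.61 and 0.60 had adjusted p = 0.103 and 0.0943 by edgeR. In the order of mean levels, PAM stood above LPS (adjusted p = 0.000226 by edgeR), LPS and CpGB did not differ beyond their spread (adjusted p = 0.933 by edgeR), and CpGB stood above Zymosan (adjusted p = 1.34e-07 by edgeR).

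Il1b, the gene of the cytokine that caspase-1 matures, had the largest single-ligand change of the 5 genes. It was at 319, 362 and 259 CPM in Ctrl and at 7926, 7757 and 8706 CPM with PAM. CpGB gave 5182, 4958 and 6488 CPM, LPS 3432, 3636 and 3477 CPM, and Zymosan 893, 928 and 858 CPM. No library of these 4 ligands overlapped Ctrl, and the ranges of the 4 ligands did not overlap each other. The log2 change was 4.71 (SE 0.19, adjusted p = 4.27e-72 by edgeR) with PAM, 4.16 (SE 0.19, adjusted p = 2.16e-62 by edgeR) with CpGB, 3.50 (SE 0.19, adjusted p = 1.4e-50 by edgeR) with LPS and 1.53 (SE 0.20, adjusted p = 1.02e-11 by edgeR) with Zymosan. Each step in this order passed the test by edgeR, with adjusted p = 8.04e-05 for PAM above CpGB, 3.97e-06 for CpGB above LPS and 2.83e-33 for LPS above Zymosan. HMW, SeV and cGAMP lay between 307 and 506 CPM, and their adjusted p by edgeR was 0.681, 0.223 and 0.65.

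Il1rn, the gene of the receptor antagonist, followed another order, with LPS and Zymosan first and PAM near Ctrl. Its Ctrl libraries stood at 789.5, 861 and 1056 CPM. LPS gave 3201, 3702 and 3844 CPM and Zymosan 3258, 2848 and 3294 CPM, and these ranges overlapped (adjusted p = 0.367 by edgeR between the ligands). The log2 change against Ctrl was 1.98 (SE 0.19, adjusted p = 1.08e-19 by edgeR) with LPS and 1.78 (SE 0.19, adjusted p = 2.25e-15 by edgeR) with Zymosan. CpGB, cGAMP and SeV raised the gene by 1.18, 1.16 and 1.08 on the log2 scale (adjusted p = 7.16e-08, 1.99e-07 and 1.88e-06 by edgeR), and their libraries, from 1659 to 2518 CPM, overlapped each other. PAM, the ligand with the highest Il1b, gave 1115, 1227 and 1228 CPM. Those 3 libraries lay just above the Ctrl libraries, but the log2 change of 0.39 (SE 0.20) had adjusted p = 0.191 by edgeR. HMW gave 973, 1148 and 790.1 CPM, which overlapped Ctrl. The calls with SeV, cGAMP and CpGB stood near the fold threshold. Scaled by library size alone their log2 changes were 0.89, 0.91 and 0.96, and without CpGB replicate 3 that ligand was just short of 1, so each call ended although the adjusted p still passed. The call with SeV also ended with RLE factors, with DESeq2 (both 0.96) and with libraries thinned to equal totals (0.90).

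Il18, whose product induces interferon-γ, gave 2, 3 and 0 UMIs in the Ctrl libraries. It gave 20, 28 and 30 UMIs with LPS (149, 155 and 134 CPM), 11, 20 and 33 with CpGB (107, 102 and 152 CPM) and 20, 11 and 21 with PAM (131, 55.3 and 117 CPM). All 9 libraries lay above Ctrl, where the highest library was at 37.4 CPM. The log2 change was 2.85 (SE 0.69, adjusted p = 1.97e-06 by edgeR) with LPS, 2.61 (SE 0.70, adjusted p = 4.24e-05 by edgeR) with CpGB and 2.29 (SE 0.70, adjusted p = 0.000938 by edgeR) with PAM. Taken as summed counts against the 5 UMIs of Ctrl, the ratio was 7.43 (95% interval 3.05 to 23.5) with LPS, an interval from the exact binomial distribution that covers counting error only. SeV also passed the test (log2 change 1.82, adjusted p = 0.023 by edgeR), although its libraries of 3, 13 and 16 UMIs overlapped Ctrl at 28.7 CPM. LPS, CpGB, PAM and SeV did not differ beyond their spread in that order (adjusted p between neighbours 0.755, 0.621 and 0.351 by edgeR). Without Ctrl replicate 3, the library at 0, the calls with PAM and SeV ended, at log2 changes of 1.56 and 1.10. The call with SeV also ended without SeV replicate 2 (1.56) or replicate 3 (1.75) and by DESeq2 (1.73), and with libraries thinned to equal totals those with SeV and CpGB ended (1.36 and 1.60). Without replicate 3 of every group the calls with PAM, CpGB and SeV ended (1.45, 1.74 and 1.10), and without replicate 2 that with SeV (2.38). HMW, Zymosan and cGAMP gave 0 to 4 UMIs per library. Their ratios of summed counts to Ctrl were 0.551 (95% interval 0.140 to 2.28), 0.428 (0.0850 to 1.99) and 1.04 (0.314 to 3.96), so a fall was not detectable at this depth.

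Il18bp, the gene of the soluble antagonist of interleukin 18, rose with LPS, SeV and cGAMP. Its Ctrl libraries held 5, 3 and 7 UMIs (69.3, 37.4 and 67.2 CPM). LPS gave 24, 40 and 41 UMIs (179, 222 and 183 CPM), SeV 22, 18 and 44 (210.2, 138 and 206 CPM) and cGAMP 22, 28 and 19 (202, 164 and 117 CPM). All 9 libraries lay above Ctrl and the 3 ligands overlapped each other. The log2 change was 1.73 (SE 0.44, adjusted p = 0.000143 by edgeR), 1.66 (SE 0.45, adjusted p = 0.00074 by edgeR) and 1.41 (SE 0.45, adjusted p = 0.00647 by edgeR). The call with cGAMP ended without replicate 2 of every group, at 1.23. SeV and cGAMP, which left Il1a and Il1b uncalled, were called for both antagonist genes. Their calls for Il1rn stood near the fold threshold, and SeV was also called for Il18. CpGB gave 67.9, 86.8 and 148 CPM, and its log2 change of 0.87 had adjusted p = 0.157 by edgeR. PAM gave 33.3 to 50.3 CPM, overlapping Ctrl, with a log2 change of -0.43 (SE 0.52, adjusted p = 0.662 by edgeR).

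**Figure D1:**
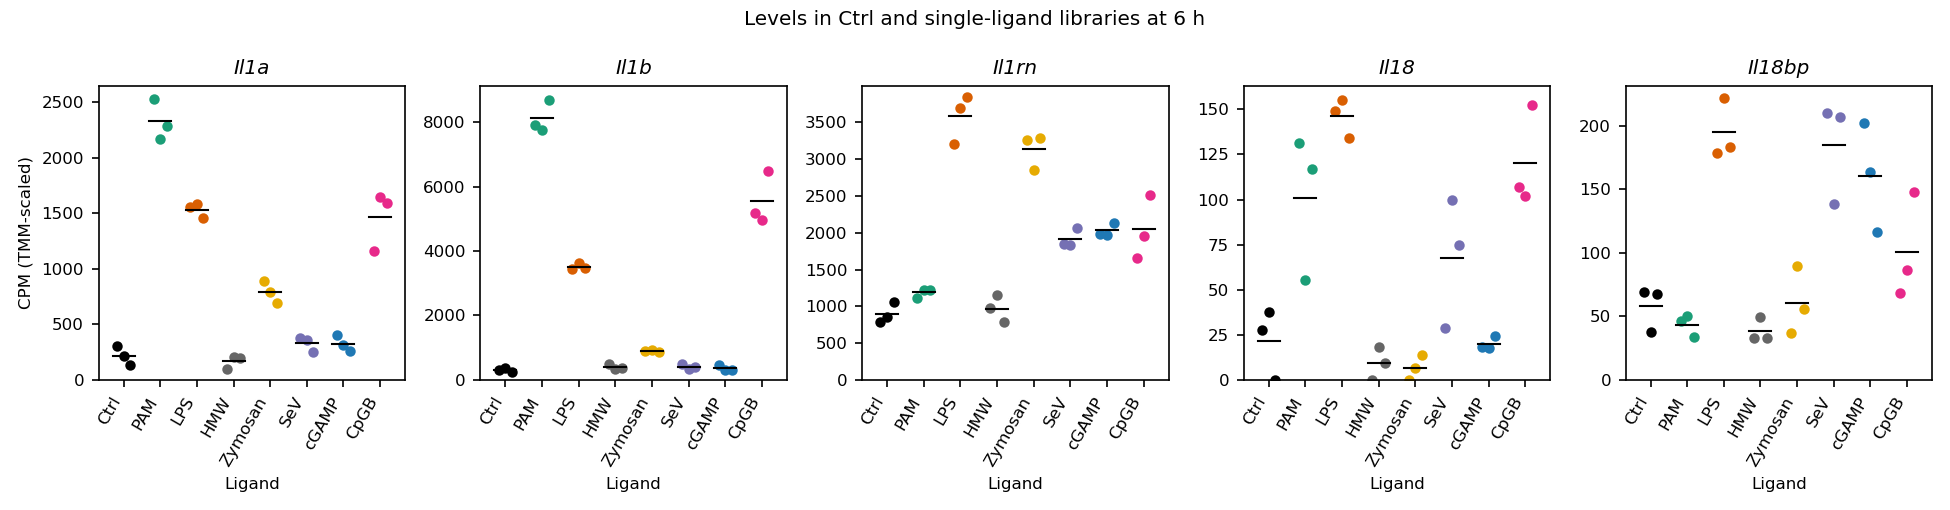
Levels of the 5 genes in CPM (linear axes from 0) in the 3 libraries (points) of Ctrl and each single ligand, with the mean as a bar. PAM stands highest for Il1a and Il1b and close to Ctrl for Il1rn and Il18bp, where LPS stands highest.

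Most combinations raised the genes above Ctrl. With pairs, 84 of 105 tests of the 5 genes were called higher, where 13.7% of all tests were called higher and 8.44% lower. With triplets, 159 of 175 were called higher, and 161 without the 8 libraries that stood apart, against 15.7% higher and 10.2% lower over all genes. None was called lower by edgeR or DESeq2, or was lower at an unadjusted p under 0.05. Il1a was called in 18 of 21 pairs and 35 of 35 triplets, and Il1b in 18 pairs and 33 triplets. The exceptions for Il1b among pairs were HMW + SeV, HMW + cGAMP and SeV + cGAMP, and among triplets HMW + SeV + cGAMP and Zymosan + SeV + cGAMP, none of which holds PAM, LPS or CpGB. Il1rn failed the call with PAM + HMW, PAM + CpGB and PAM + HMW + CpGB alone, at mean log2 changes of 0.90, 0.70 and 0.91. Il18 was called in 14 pairs and 28 triplets and Il18bp in 15 pairs and 29 triplets.

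Levels over the 64 groups fell into classes by ligand, described here by a split chosen after the levels were seen. In the 49 groups with PAM, LPS or CpGB, mean Il1b ran from 2866 CPM (Zymosan + cGAMP + CpGB) to 11138 CPM (PAM + HMW), with a median of 5327 CPM. In the 15 groups with none of these ligands it ran from 313 CPM (Ctrl) to 997 CPM (HMW + Zymosan). The lowest single library of the first class, at 2567 CPM, lay above the highest of the second, at 1193 CPM. Il1a split at the same ligands, with group means of 1468 to 6006 CPM against 169 to 1012 CPM. Its highest group was PAM + LPS + cGAMP, at 5673, 6162 and 6184 CPM, and its lowest was HMW. For Il18 the classes overlapped, with group means of 35.2 to 236 CPM with any of the 3 ligands and 6.8 to 67.8 CPM without.

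LPS also stood in the higher class of both antagonist genes, beside Zymosan for Il1rn and SeV and cGAMP for Il18bp, and these classes overlapped. Il1rn ran from 3133 to 10165 CPM in the 38 groups with LPS or Zymosan and from 902 to 5378 CPM in the 26 groups without, and its highest group was LPS + Zymosan + CpGB at 9519, 10768 and 10209 CPM. Il18bp ran from 84.6 to 318 CPM in the 49 groups with LPS, SeV or cGAMP and from 33.1 to 106 CPM in the 15 groups without. Its highest group was PAM + LPS at 301, 337 and 316 CPM, and its lowest was PAM + CpGB, with 3, 2 and 7 UMIs. Ordered by mean, neighbouring groups overlapped in 60 of 63 steps for Il1a, 59 for Il1b, 62 for Il1rn and Il18bp and 63 for Il18, so single places in these orders are not resolved.

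**Figure D2:**
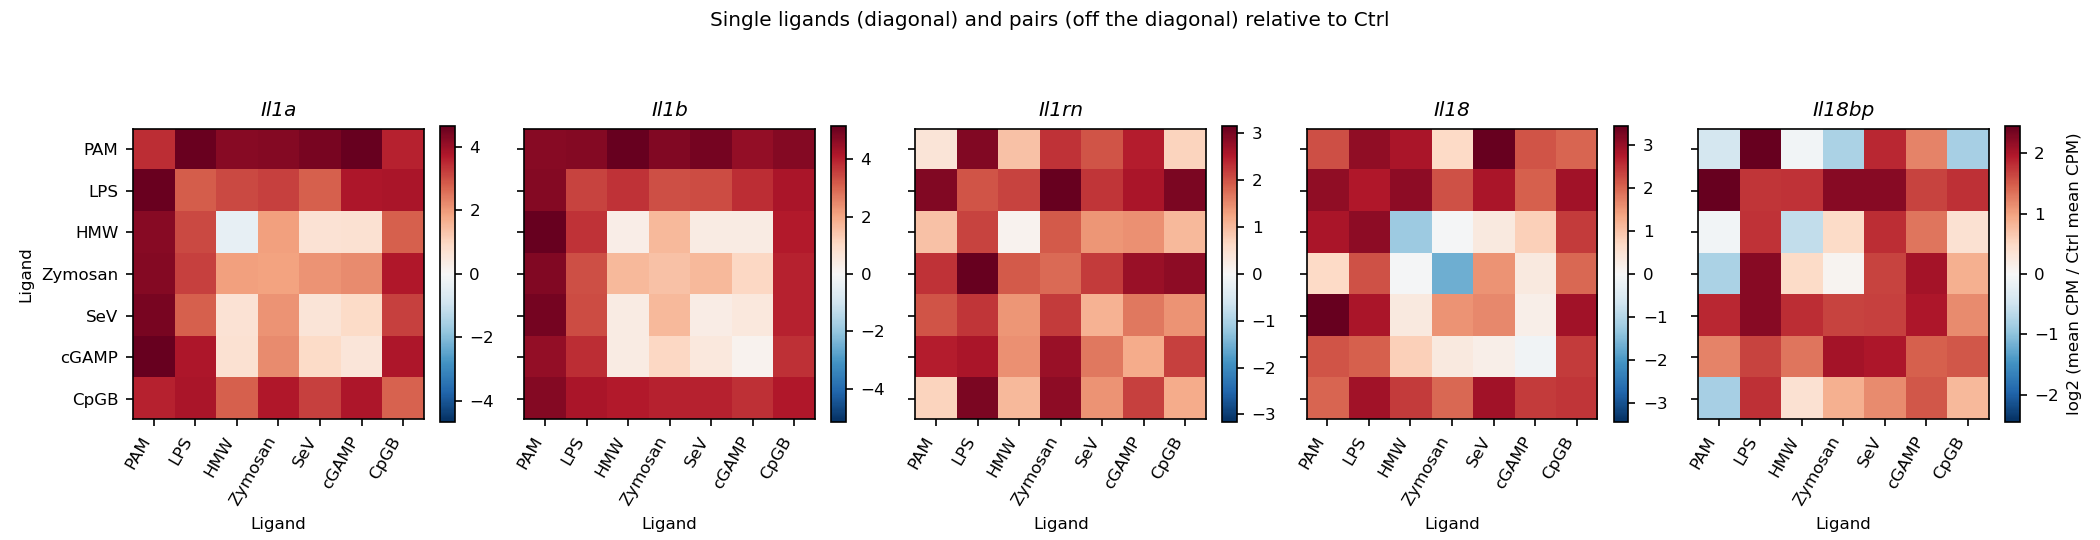
Mean level relative to the Ctrl mean, as log2, for each single ligand (diagonal) and pair (off the diagonal), with a colour scale per gene. The rows and columns of PAM, LPS and CpGB stand out for Il1b, those of LPS and Zymosan for Il1rn, and those of LPS, SeV and cGAMP for Il18bp, while Il18 is lowest with Zymosan alone.

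To see what a ligand did in company, each was compared with the same background lacking it, over 6 single ligands and 15 pairs. For a given ligand these 21 comparisons share no library, whereas those of different ligands do. Adding PAM raised Il1a in 15 and Il1b in 13 of 21 backgrounds at the call, where 2.43% of all genes' tests were called higher, and the estimate was positive for both genes in all 21. The mean log2 change over the 21 backgrounds was 2.16 (SE 0.03) for Il1a and 2.33 (SE 0.03) for Il1b (adjusted p = 1.07e-143 and 6.1e-163 by edgeR). Adding CpGB raised Il1a and Il1b in 10 backgrounds each, against 2.26% of all tests, with means of 1.22 and 1.50 (adjusted p = 3.26e-94 and 2.61e-123 by edgeR). Adding LPS raised them in 13 and 10, against 5.69%, with means of 1.31 and 1.26 (adjusted p = 6.26e-100 and 3.99e-109 by edgeR). Over all 7 ligands and 5 genes, 184 of 735 additions were called, 173 higher and 11 lower, and 185 were called without the libraries that stood apart, 175 higher and 10 lower. By ligand, the share of all genes' tests called higher ran from 0.419% with HMW to 5.69% with LPS. The 11 falls came with PAM, Zymosan and cGAMP, where 1.47%, 0.853% and 2.63% of all tests were called lower. The mean over backgrounds was called higher in 10 of 35 cases. The background for such means was 1.59% of all genes with PAM, 4.58% with LPS, 0% with HMW, 2.63% with Zymosan, 0.975% with SeV, 4.51% with cGAMP and 1.29% with CpGB.

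Il1a and Il1b parted on addition of Zymosan and cGAMP. The mean log2 change of Il1a was 0.64 (SE 0.03) with Zymosan and 0.54 (SE 0.03) with cGAMP, and it passed the test for both (adjusted p = 1.01e-47 and 4.62e-39 by edgeR), where 20.4% and 27.4% of all genes were higher by adjusted p alone. For Il1b the mean was 0.07 (SE 0.03) and -0.19 (SE 0.03), with adjusted p = 0.0464 and 8.25e-10 by edgeR. None of these means reached 1, and the difference between the genes was not tested.

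The size of these additions differed with whether another of PAM, LPS and CpGB was already there, a split also chosen after the values were seen and not tested. Onto the 10 backgrounds without LPS or CpGB, PAM raised Il1b by 3.01 to 4.83 on the log2 scale, and every one was called. Onto the 11 backgrounds with either, the change was 0.43 to 1.55 and 3 were called. LPS raised Il1b by 1.80 to 3.67 onto the 10 backgrounds without PAM or CpGB, and onto the other 11 its changes of -0.67 to 0.20 were never called. CpGB gave the same picture, with 2.13 to 3.76 against -0.39 to 0.71. For Il1a, the addition of PAM gave changes of 0.51 to 1.91 onto the 11 backgrounds with LPS or CpGB, and 5 were called, against 2.19 to 4.50 onto the 10 without. With LPS the ranges for Il1a met, at -0.45 to 1.19 onto backgrounds with PAM or CpGB and 1.11 to 3.33 onto those without.

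Il1rn rose most often on addition of LPS and of Zymosan. LPS was called in 13 of 21, and the mean log2 change was 1.28 (SE 0.03, adjusted p = 1.61e-93 by edgeR). Zymosan was called in 12, against 2.42% of all genes' tests called higher, with a mean of 1.20 (SE 0.03, adjusted p = 8.57e-88 by edgeR). Both ligands gave positive estimates in all 21 backgrounds, from 0.33 to 2.53 for LPS and from 0.42 to 1.98 for Zymosan. Adding cGAMP was called in 6 backgrounds, against 5.36% of all tests, with its largest change of 2.07 onto PAM, and its mean of 0.80 passed the adjusted p (4.7e-59 by edgeR) but not the fold threshold. Adding PAM, SeV or CpGB was called in 2, 3 and 1 backgrounds, with means of 0.50, 0.44 and 0.54, where SeV was called higher in 2.57% of all tests. Over the alternative settings these 3 counts ran from 1 to 4, 2 to 5 and 0 to 4. HMW was called once for Il18bp, against 0.419% of all tests, and for none of the other 4 genes in any background by edgeR or DESeq2. Over the alternative settings its count of rises ran from 0 to 1 for Il18bp and likewise for Il18. Over all genes 0.0474% of tests with HMW were called lower. The mean change with HMW passed the adjusted p for Il1a, Il1b and Il1rn, at 0.14, 0.11 and 0.14 (adjusted p = 0.000592, 0.00242 and 0.00105 by edgeR), where 7.61% of all genes were higher by adjusted p alone. At an unadjusted p under 0.05, HMW was higher in 3 backgrounds for Il1a, 2 for Il1b, 5 for Il1rn and 2 for Il18, and lower in 1 each for Il1rn and Il18bp and 2 for Il18.

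Falls were fewer, and most concerned Il18 on addition of Zymosan or cGAMP. Adding Zymosan lowered Il18 at the call in 3 of 21 backgrounds and raised it in none, where 0.853% of all genes' tests were called lower, and the mean log2 change was -0.60 (SE 0.10, adjusted p = 1.99e-08 by edgeR). Adding cGAMP lowered Il18 in 5 backgrounds, against 2.63% of all tests, and raised it in 1, with a mean of -0.36 (SE 0.10, adjusted p = 0.00136 by edgeR). The largest fall, of -1.78, was seen when cGAMP joined Zymosan + SeV, at 18.8, 20.1 and 12.6 CPM against 81.1, 59.6 and 48.1 CPM, and these ranges did not overlap. Zymosan + SeV + cGAMP replicate 1 is among the libraries that stood apart. Without the libraries that stood apart the means were -0.62 with Zymosan and -0.37 with cGAMP. With every library thinned to 46564 UMIs, the total of the smallest, the means were -0.39 and -0.21 and neither passed the test, and without replicate 3 of every group the mean with cGAMP was -0.29 and did not pass. Over 11 alternative settings the count of called falls ran from 1 to 4 with Zymosan and from 0 to 5 with cGAMP. With adjusted p alone, 20.1% of all genes were lower on addition of Zymosan and 28.3% on addition of cGAMP.

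Il18 rose on addition of LPS, PAM or CpGB in 8 backgrounds each, and all 8 were among the 10 that held neither other ligand of these 3. Their mean log2 changes were 1.01, 0.93 and 0.88 (adjusted p = 1.87e-23, 6.99e-21 and 1.89e-18 by edgeR), of which LPS alone passed the fold threshold. All 3 lay near the threshold. The mean with LPS was 0.88 to 0.99 with RLE factors, library size alone, DESeq2 and without replicate 1 or 2 of every group. PAM passed with thinned libraries (1.03) and without replicate 2 (1.02), and CpGB with thinned libraries (1.08) and without replicate 3 (1.00). Over 11 alternative settings, Il18 was called higher in as few as 3 backgrounds with PAM and 4 each with LPS and CpGB. Il18bp rose on addition of LPS and of cGAMP in 9 backgrounds each and of SeV in 7, a count that ran from 4 to 8 over the alternative settings. The means were 1.08 (SE 0.07, adjusted p = 6.92e-39 by edgeR), 0.72 (SE 0.07, adjusted p = 4.83e-21 by edgeR) and 0.81 (SE 0.07, adjusted p = 2.08e-24 by edgeR), and that with LPS was 0.95 with library size alone, short of the fold threshold. Of these additions, 8, 9 and 7 were onto the 10 backgrounds without the other 2 ligands. PAM lowered Il18bp at the call in 2 backgrounds, against 1.47% of all tests called lower, the larger at -1.68 onto CpGB, and the count ran from 0 to 2 over the alternative settings.

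**Figure D3:**
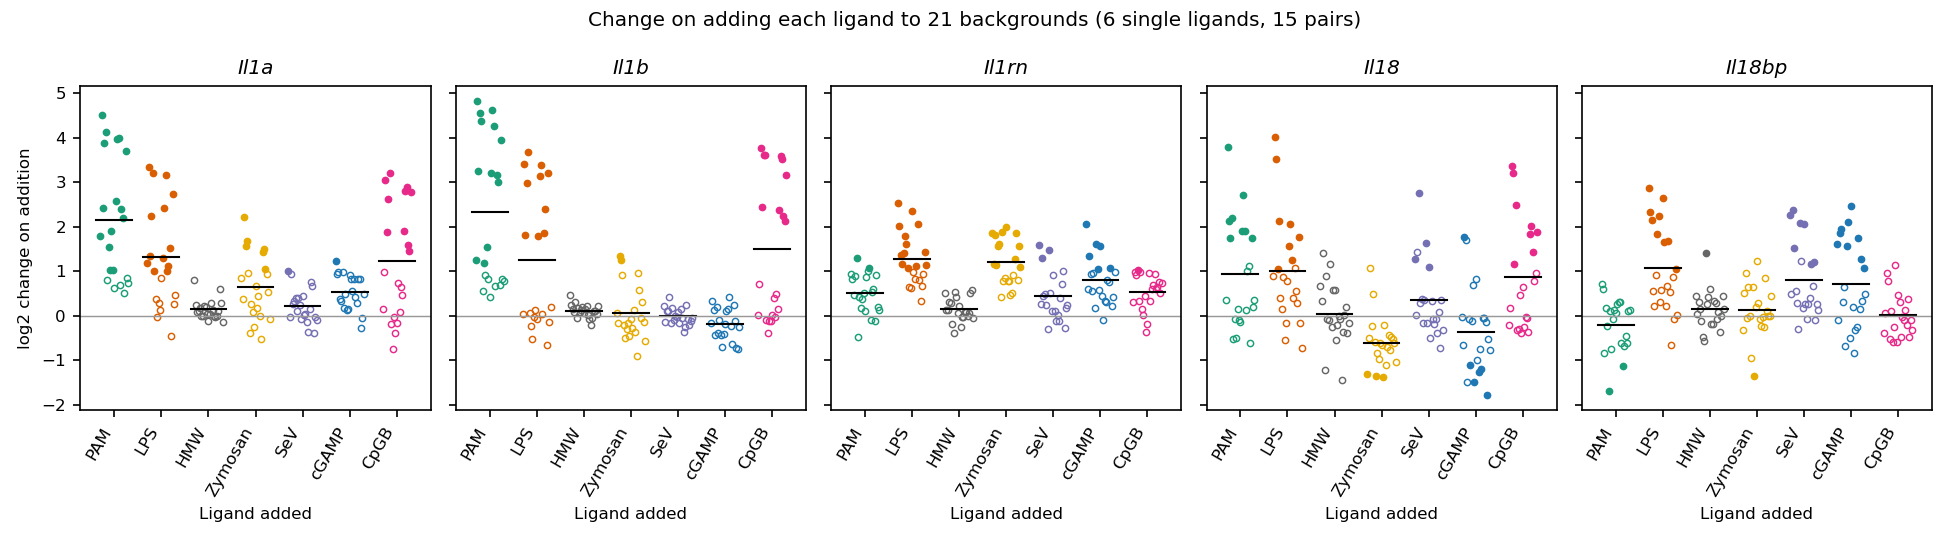
The log2 change on adding each ligand to 21 backgrounds, with 1 point per background (filled where called) and the mean change as a bar. For Il1b the points of PAM, LPS and CpGB fall into a high and a low cloud. Those of PAM and CpGB for Il1a divide with much narrower gaps, and those of LPS and Zymosan for Il1rn all lie above 0.

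Pair interactions, the log2 change with a pair minus the sum of both single changes, were mostly negative. With an adjusted p under 0.05 by edgeR and no fold threshold, 20 of 105 tests of the 5 genes were called, 19 negative and 1 positive, where 3.5% of all tests were called negative and 1.08% positive. The 21 interactions share the Ctrl and single-ligand libraries. For Il1b, 6 pairs were called, all among PAM, LPS, CpGB and Zymosan. PAM + LPS gave 10178, 6929 and 7962 CPM, a range that overlapped PAM alone, and its interaction was -3.47 (SE 0.22, adjusted p = 2.01e-37 by edgeR). LPS + CpGB gave 5606, 5630 and 6018 CPM, within the range of CpGB alone, with an interaction of -3.45 (SE 0.22, adjusted p = 7.47e-37 by edgeR). The same 6 pairs were called for Il1a, with interactions from -2.68 with PAM + CpGB to -0.95 with Zymosan + CpGB. With thinned libraries the Il1a calls with Zymosan + CpGB, PAM + Zymosan and LPS + Zymosan ended (-0.57, -0.71 and -1.10). That with Zymosan + CpGB also ended with RLE factors (-0.87) and without replicate 2 or 3 of every group (-0.86 and -0.81), and that with PAM + Zymosan without replicate 3 (-0.86). Il18 had negative interactions with PAM + LPS, PAM + CpGB and LPS + CpGB, of -1.95, -2.82 and -2.45 (adjusted p = 0.0361, 0.00102 and 0.00209 by edgeR), which rest on the 5 UMIs of Ctrl. All 3 of these Il18 calls ended with libraries thinned to equal totals (-2.12, -1.74 and -0.82) and without replicate 3 of every group (-1.30, -1.81 and -1.57), and that with PAM + LPS also without replicate 1 of every group or PAM + LPS replicate 1 alone (-1.97 and -1.86). The count of 20 was 24 without the libraries that stood apart, of which 2 were positive, and 12 with libraries thinned to equal totals or without replicate 3 of every group. All 6 interactions of Il1b were called in each of these settings. DESeq2 called a further positive interaction, of Il1a with PAM + HMW (1.12, against 1.03 with adjusted p = 0.295 by edgeR).

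For Il1rn the interaction with PAM + cGAMP was positive, at 0.91 (SE 0.26, adjusted p = 0.0242 by edgeR). That pair gave 5233, 4737 and 5038 CPM, against 1115 to 1228 with PAM and 1975 to 2136 with cGAMP, with no overlap. This interaction kept its direction but missed the threshold without replicate 1, 2 or 3 of every group, at 0.85, 0.92 and 0.78. Those with PAM + CpGB, LPS + SeV and SeV + CpGB were negative, at -0.87, -0.81 and -0.85 (adjusted p = 0.0158, 0.0175 and 0.0204 by edgeR). Each kept its direction but not its call in some settings. PAM + CpGB missed the threshold by DESeq2 (-0.76) and without replicate 3 of every group (-0.88), LPS + SeV by DESeq2 (-0.72), with thinned libraries (-0.55) and without replicate 2 (-0.87), and SeV + CpGB with thinned libraries (-0.58) and without replicate 2 or 3 (-0.91 and -0.90). PAM + CpGB gave 1336, 1636 and 1464 CPM, which lay below all 3 libraries of CpGB alone and above those of PAM. For Il18bp 1 pair was called, LPS + cGAMP, which gave 201, 173 and 176 CPM, inside the range of the single ligands (interaction -1.51, SE 0.52, adjusted p = 0.0272 by edgeR). It missed the threshold by DESeq2 (-1.45) and without replicate 1 or 2 of every group (-1.65 and -1.23). By DESeq2 the interaction of Il18 with PAM + LPS missed it too.

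**Figure D4:**
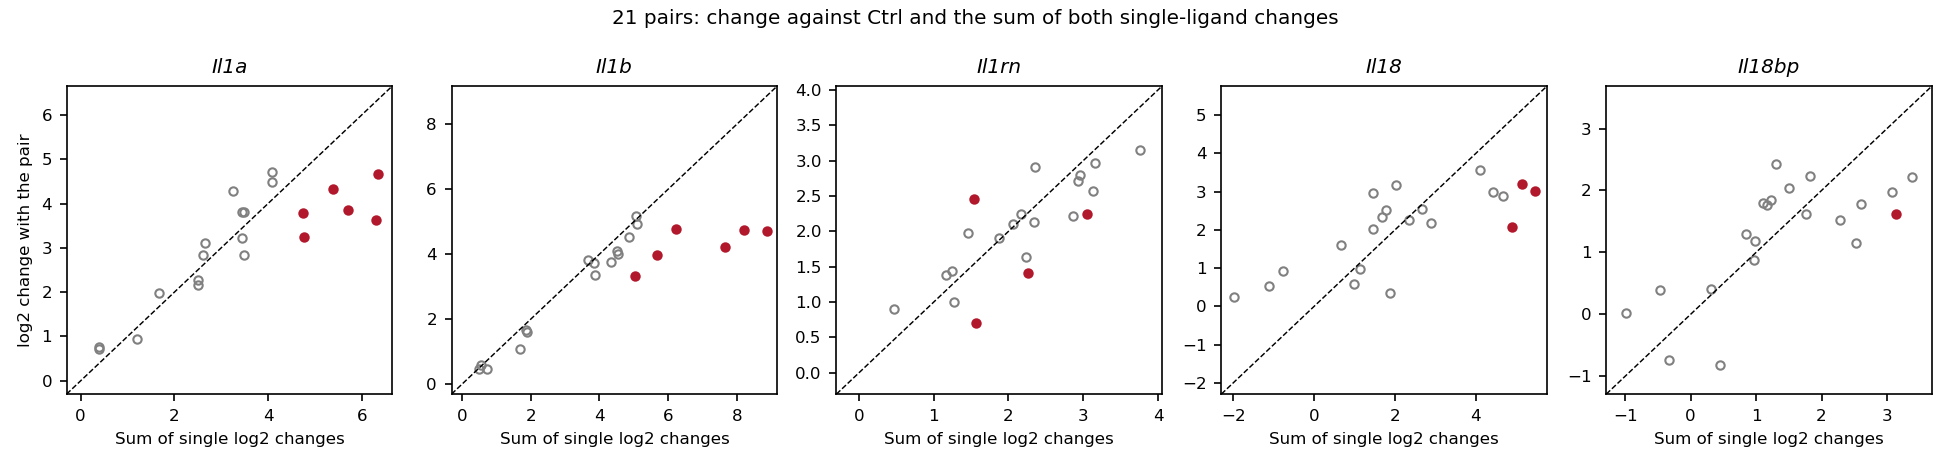
The log2 change of each of 21 pairs against Ctrl, plotted against the sum of both single-ligand changes, with the dashed line where they are equal and filled red points where the interaction was called. Called points lie below the line, except Il1rn with PAM + cGAMP. They stand at high sums for Il1a, Il1b and Il18. For Il1rn they do not, and its pair with the highest sum, LPS + Zymosan, was not called.

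A stricter rule asked whether a pair stood above both of its single ligands, by at least 1 on the log2 scale against each. It was met 7 times by the 5 genes and by 0.353% of all genes' tests. No gene of the set stood below both by edgeR or DESeq2, nor at an unadjusted p under 0.05, against 0.0504% of all tests. Il1a met it with PAM + LPS (5850, 4985 and 5091 CPM), PAM + cGAMP (5391, 5605 and 5475 CPM) and PAM + SeV (4438, 4559 and 4956 CPM). The smaller of the log2 changes was 1.19, 1.24 and 1.00 (adjusted p = 1.33e-13, 3.84e-15 and 5.14e-10 by edgeR), so PAM + SeV lay at the threshold and did not meet the rule with RLE factors, library size alone or DESeq2, nor without replicate 2 or 3 of every group. With library size alone none of the 3 pairs met it for Il1a. Il1b met it in no pair, and its highest group, PAM + HMW, at 10818, 10957 and 11639 CPM, exceeded PAM by 0.45. Il1rn met it with PAM + cGAMP (1.30), LPS + Zymosan (1.17) and Zymosan + CpGB (1.02), the last of which did not meet it with RLE factors, library size alone, DESeq2 or libraries thinned to equal totals. LPS + Zymosan gave 7596, 8955 and 7643 CPM, clear of both ligands (adjusted p = 1.31e-09 by edgeR). Il18 met it with PAM + SeV, at 19, 39 and 40 UMIs or 179, 250.4 and 280.4 CPM (smaller log2 change 1.28, adjusted p = 0.00106 by edgeR), but not with thinned libraries or without replicate 2 of every group.

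PAM + LPS was uneven for Il1rn, with replicate 1 at 4465 CPM and the others at 7827 and 8143 CPM. Without that replicate the pair met the rule (smaller log2 change 1.15) and its interaction of 0.77 was called, where with it the interaction was 0.55 and was not. With it kept and the 8 libraries that stood apart left out, the interaction was 0.56 and was called. No triplet stood above or below all 3 of its pairs for any of the 5 genes by edgeR or DESeq2, against 0.0115% and 0% of all tests. At an unadjusted p under 0.05 for all 3 comparisons, 12 of 175 tests were above and none below. With no fold threshold, Il1rn with PAM + Zymosan + cGAMP was above all 3 pairs (smallest log2 change 0.59, adjusted p = 0.0468 by edgeR), at 7890.1, 10075 and 9197 CPM.

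The balance of antagonist to cytokine RNA was followed as the ratio of UMI counts within a library. Such a ratio depends on how well each gene is captured, so it is compared between groups and not read as an excess of either molecule. Il1rn per Il1b was 2.38, 2.48 and 4.07 in the Ctrl libraries, lowest first. Its median was lowest with PAM, whose libraries lay between 0.141 and 0.158 and overlapped those of PAM + HMW at 0.132 to 0.172. The ratio was 0.32 to 0.395 with CpGB and 0.933 to 1.11 with LPS. With Zymosan it was 3.07 to 3.84, with SeV 3.66 to 5.45 and with cGAMP 4.43 to 6.96. The highest median, 9.52, was reached with Zymosan + cGAMP, whose 3 libraries ran from 7.88 to 10.2. PAM, CpGB and LPS lay below all Ctrl libraries and cGAMP above them. The ratio of Il1a to Il1b also moved, from a median of 0.246 with CpGB to 1.70 with Zymosan + cGAMP. Il18bp per Il18, from pooled counts, was 3.0 in Ctrl, 0.442 with PAM, 0.875 with CpGB, 1.35 with LPS, 2.63 with SeV, 3.67 with HMW, 7.5 with Zymosan and 7.67 with cGAMP. The Ctrl value rests on 15 and 5 UMIs and was 1.6 without Ctrl replicate 3 and 6.0 without Ctrl replicate 2, so it does not place SeV or HMW above or below Ctrl. LPS lay just below the lowest of these Ctrl values. The ratios with Zymosan and cGAMP rest on 4 and 9 UMIs of Il18, so they are not placed apart from Ctrl either. Single libraries are too shallow to rank.

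**Figure D5:**
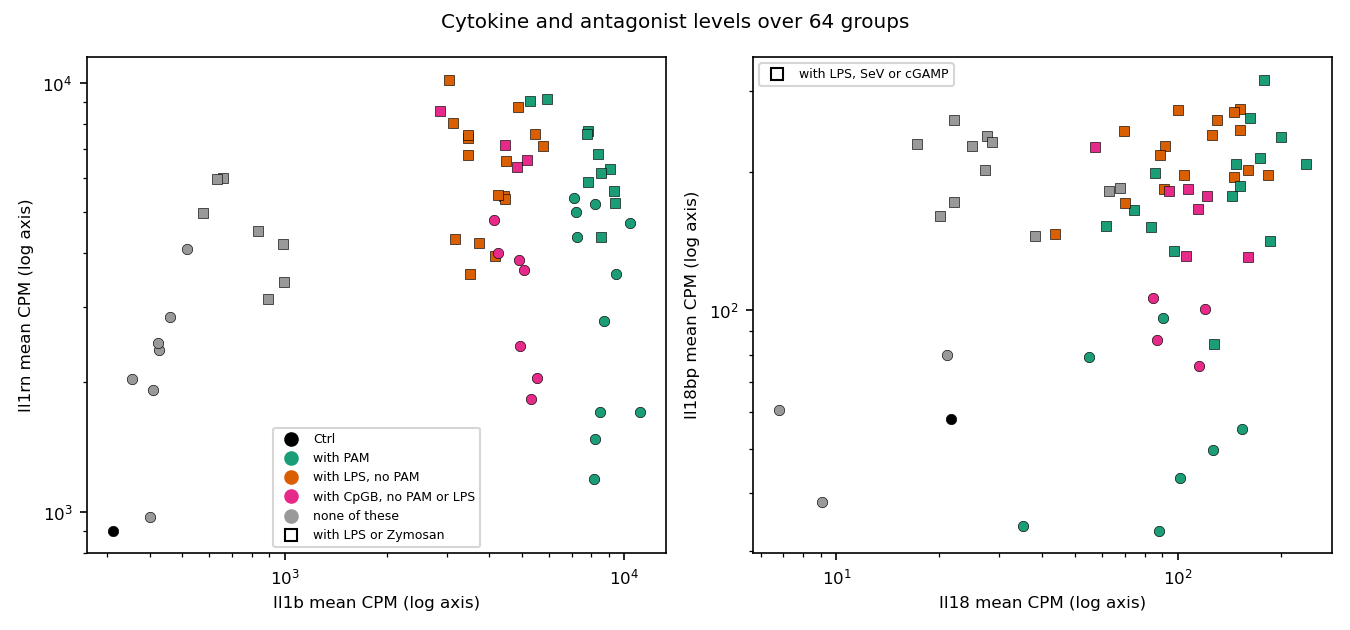
Mean CPM of Il1rn against Il1b and of Il18bp against Il18 over the 64 groups, on log axes, coloured by the presence of PAM, LPS or CpGB. Squares mark groups with LPS or Zymosan (left) and with LPS, SeV or cGAMP (right). Colour separates groups along Il1b, with no group mean between 997 and 2866 CPM, while along the antagonists the squares lie higher in their range but overlap the other groups.

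Over the 64 group means of log2 CPM, Il1a and Il1b moved most alike (Pearson r = 0.938, Spearman rho = 0.855), Il18 followed Il1b (0.807 and 0.659) and Il18bp followed Il1rn (0.587 and 0.442). Il18bp and Il1b were unrelated on this scale (r = -0.08, rho = -0.184). These are descriptions, since groups share ligands and 3 libraries of unequal depth make up each point. The genes with the most similar pattern to Il1a, of 4719 compared, were Ptgs2, the gene of the prostaglandin enzyme cyclooxygenase-2 (r = 0.960), Il1b and the cytokine gene Il6 (0.920). For Il1b they were Acpp (0.970), Sod2, the mitochondrial superoxide dismutase gene (0.965), and Saa3, a serum amyloid A gene (0.954). For Il1rn they were Mdm2 (0.902), B4galt5 (0.874) and Edn1, the endothelin 1 gene (0.871). For Il18 they were Mgat4a, Cp and Aoah (0.875, 0.870 and 0.869), and for Il18bp Lamp2, Iigp1, an interferon-induced GTPase gene, and Fndc3a (0.932, 0.927 and 0.920).

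Of 37 other genes of the pathway listed by role, 33 were rows of the table and 17 were tested. By ligand, 7 rose and 1 fell with PAM, where 8.01% of all genes were called higher and 5.89% lower. With LPS 11 rose and 1 fell (14.6% higher and 9.6% lower). Of the same 17, 9 rose with SeV (10.5% of all genes higher), 8 with cGAMP (11.7%), 8 with CpGB (10.8%), 2 with Zymosan (4.43%) and none with HMW (0.953%). The median log2 change of the 17 was 1.06, 1.68, 1.34, 1.41, 1.06, 0.77 and 0.71 in that order of ligands, where the median of all tested genes lay between -0.09 and 0.03. The higher median with HMW came with no call.

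Among the genes of maturation and release, Casp1, the protease that cuts the precursors of interleukin 1β and interleukin 18, was at 64 ± 14.2 CPM in Ctrl (SD, n = 3). It rose with LPS (370 ± 48.4), SeV (364 ± 11), cGAMP (259 ± 62.2) and CpGB (246 ± 13), with log2 changes of 1.97 to 2.57, and was not called with PAM or Zymosan. Nlrp3, a sensor that builds an inflammasome, was called with every ligand other than HMW and was highest with PAM (289 ± 75.4 CPM, log2 change 2.61, adjusted p = 8.42e-10 by edgeR). Casp4, which senses cytosolic lipopolysaccharide, was called with PAM, LPS, SeV, cGAMP and CpGB, Casp8 with LPS, SeV and cGAMP, and Gsdmd, the pore-forming protein that releases the cytokines, with LPS and SeV. Mefv, the pyrin gene, was called with PAM, LPS and CpGB. Pycard, the adaptor ASC of the inflammasome, was the gene that fell, from 222 ± 31.9 CPM to 76.5 ± 13.8 with PAM and 105 ± 31.2 with LPS (log2 changes -1.55 and -1.10, adjusted p = 3.86e-05 and 0.00182 by edgeR). With Zymosan and CpGB its log2 changes of -0.93 and -0.89 passed the adjusted p (0.0296 and 0.0177 by edgeR) but not the fold threshold.

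The receptor genes were too weakly measured to test. Il1rap, the shared accessory chain, had 604 UMIs over all libraries, the decoy receptor gene Il1r2 had 153 and Il1r1, the signalling receptor, 21, and the other 5 had 20 or fewer each. Of the signalling genes, Myd88 was called with 5 ligands, at log2 changes of 1.06 to 1.82, and Irak2, a kinase downstream of MyD88, and Tab2 were called with the same 5, PAM, LPS, SeV, cGAMP and CpGB. Irak3, an inhibitory member of the kinase family, was at 8.77 ± 7.63 CPM in Ctrl and 163 ± 13.3 CPM in PAM libraries (log2 change 4.25, adjusted p = 1.71e-08 by edgeR) and was also called with CpGB, LPS and Zymosan. Peli1, a ubiquitin ligase, was called with cGAMP, LPS and SeV, and was highest with cGAMP at 691 ± 36 CPM against 71.9 ± 35.2 in Ctrl (log2 change 3.29, adjusted p = 2.37e-17 by edgeR). Il33, the other ligand gene tested, was at 0 in Ctrl and with all single ligands other than Zymosan and cGAMP, where it averaged 1.56 and 2.05 CPM. It was not called with either (adjusted p = 0.717 and 0.589 by edgeR), at counts too low to show a change.

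Several of the genes overlap others in the annotation, and the strand used in counting is not given in the sources used here. Gm14023 lies antisense within Il1a and had 414 UMIs in all, against 91314 for Il1a. Il1bos lies antisense to Il1b over 1243 bases and has no row of its own, so its reads cannot be told apart from those of Il1b. Bco2 and Tex12, with 64 and 3 UMIs, overlap Il18, and Numa1, with 803 UMIs, overlaps Il18bp by 80 bases, against 3264 for Il18 and 5553 for Il18bp.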

How the data were processed

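RNA was measured in mouse dendritic cell libraries, 3 in each of 64 groups taken from the labels. The deposited table holds UMI counts per gene symbol as whole numbers, and BWA 0.7.15 and the mm10 build are named in the submitters' processing notes. The annotation, strand and UMI collapsing used by the authors are not given in the sources used here.

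All libraries were fitted together in R 4.3.3 with edgeR 4.0.16, with 64 group coefficients and 128 residual degrees of freedom. Filtering with filterByExpr kept 4720 of 23481 genes and 95.7% of UMIs. Library sizes were scaled by TMM, quasi-likelihood tests were run per contrast, and p-values were adjusted by Benjamini-Hochberg over all tested genes. Levels in CPM are UMI counts per 1000000 UMIs of the TMM-scaled library, and correlations used log2 CPM with a prior count of 2. A pair was said to stand above both single ligands, and a triplet above its 3 pairs, when every such contrast passed, with the largest of their p-values adjusted over genes. The tests were tested on simulated data with known changes.

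Of all pairs of libraries within a group, none had identical values and none agreed within sampling noise by a chi-square test of counts. Totals of 46564 to 610234 UMIs limit Il18 and Il18bp most. Alternatives used RLE factors, library size alone, DESeq2 1.42.0, no filter, libraries thinned to equal totals, the replicate number as a block, a fit of 1 ligand with Ctrl, no fold threshold, and fits without single libraries or replicates. The genes named were the 5 members in every group, the pathway genes called with at least 1 single ligand, and for each member the 3 genes with the highest correlation of group means. Il33, the receptor genes and the overlapping genes were named besides. The members and lists were chosen with earlier results of these data known. Promoter windows came from RefSeq (GRCm38.p6), where all 5 genes matched by symbol, and gene positions from GENCODE M21.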

Additional observations from a re-analysis of the deposited data

Results flagged for a closer look

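The effect of a ligand on the 5 genes differed with a second ligand present in 20 of 105 cases by the interaction test of edgeR (adjusted p under 0.05). Each value is the log2 change with the pair minus the sum of both single changes, so a negative value means less than the sum. No explanation was tested.

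For Il1b the interaction was -4.15 with PAM + CpGB, -3.47 with PAM + LPS, -3.45 with LPS + CpGB, -1.72 with Zymosan + CpGB, -1.70 with LPS + Zymosan and -1.46 with PAM + Zymosan. For Il1a, in the same order of pairs, it was -2.68, -1.69, -1.86, -0.95, -1.52 and -1.05. These are all 6 pairs among PAM, LPS, Zymosan and CpGB. For Il18 it was -2.82 with PAM + CpGB, -2.45 with LPS + CpGB and -1.95 with PAM + LPS. For Il1rn it was 0.91 with PAM + cGAMP, the positive value among the 20, and -0.87 with PAM + CpGB, -0.85 with SeV + CpGB and -0.81 with LPS + SeV. For Il18bp it was -1.51 with LPS + cGAMP. All 20 use the 3 Ctrl libraries, and those that share a ligand also share its libraries.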

How the results depend on the processing

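Single values were followed for the 35 single-ligand tests, the 35 mean additions and the 20 called interactions, and none that was called changed direction. Other additions, pairs and triplets were followed as counts. Of the values of the single-ligand tests, 20 of which were calls, 19 lost the call under an alternative, 611 stayed on their side of it, called or not, and none gained it. Of the mean additions, 6 lost it and 4 gained it, and of the called interactions 30 lost it and 190 kept it. The count of interactions, 20, was 12 with libraries thinned to equal totals. The count of additions, 184, was 308 with no fold threshold. The count of pairs above both single ligands, 7, was 3 with library size alone, 11 with no filter and 20 with no fold threshold. The count of triplets above all 3 pairs, 0, was 1 with no fold threshold.

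Without replicate 1, 2 or 3 of every group, or without 1 library of a single ligand or Ctrl, the counts ran from 17 to 20 for single ligands. Without a replicate they ran from 78 to 85 for pairs, 147 to 160 for triplets, 168 to 186 for additions, 9 to 11 for mean additions (10 with all libraries), and 7 to 8 for pairs above both ligands. For interactions they ran from 12 to 20, where the upper bound is the fit without PAM + LPS replicate 1. The fits without that library and without the libraries that stood apart were chosen after seeing the data.

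With the replicate number as a block, the counts were 20 for single ligands, 84 for pairs, 160 for triplets, 185 for additions, 10 for mean additions, 20 for interactions and 7 for pairs above both ligands. By these data the numbers do not pair the libraries in general, and whether they pair those of some groups cannot be told. Deviations of same-numbered libraries from their group means had median correlations of 0.02 to 0.03 over 2016 pairs of groups for each number, between -0.56 and 0.34. Of these pairs of groups, 62, 293 and 115 had a correlation over 0.1 for numbers 1, 2 and 3.

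The median log2 change of all genes with LPS against Ctrl was -0.06 with TMM, -0.21 with RLE factors and -0.36 with library size alone, and the latter shift moved the median by over 0.1 for every ligand except HMW. Depth limits Il18 most.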
